A study of Mus musculus with 6 samples.

Results

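The 39 genes described here are interferon-stimulated genes, which cells switch on when an interferon binds its receptor. They were taken from the count table by gene symbol. Of the 39 symbols, 38 matched an entry directly and Ifi27 was found under the older symbol Ifi27l1. The members make up 39 of the 17128 genes of the table, and all 39 passed the filter on low counts that left 13926 genes for testing. Every member was compared between marrow stromal cells in which Col2a1-cre acted on a floxed Cxcl12 allele and control stromal cells.

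Type I interferons signal through Ifnar1 and Ifnar2 and the kinases Jak1 and Tyk2 to a complex that holds Stat2 and Irf9. That complex binds the interferon-stimulated response element (ISRE) in the promoters of its targets. Interferon gamma acts through Ifngr1 and Ifngr2, and its signal ends at a different sequence, the gamma-activated site (GAS). The targets include sensors of viral RNA, proteins that block translation or virus assembly, GTPases that attack the vacuoles of intracellular microbes, and feedback inhibitors.

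The RNA sequencing libraries came from femurs of mice at postnatal day 21. The distal growth plates and the proximal ends were removed, the rest was digested with collagenase, and about 20000 sorted cells went into each library. In the control group (n = 3) the sort took GFP+ cells, and the genotype was Cxcl12(GFP/fl); R26R(tdTomato/+). In the CXCL12-deficient group (n = 3) it took GFP+tdTomato+ cells from mice that also had Col2a1-cre. Both groups therefore had a Cxcl12 allele replaced by GFP, a floxed second allele and the tdTomato reporter. Cre driven by Col2a1 acts in cells descended from precursors that expressed this cartilage collagen. The groups differ in sorting gate, in cre and in the floxed allele at once, and the effects of these cannot be told apart. Nothing in the labels says that each library is a separate animal, so p-values cover only how far these libraries vary.

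Library totals ran from 20133299 to 28009257 counts, and 1 read was worth 0.0357 to 0.0472 CPM, which puts all libraries on 1 common size, so a level under about 1 CPM rested on few reads. Cxcl12, the targeted chemokine gene, had 3876, 3673 and 3694 CPM in the controls and 1423, 1279.9 and 1163 CPM in the CXCL12-deficient libraries, a log2 fold change of -1.54. The sum of 10 stromal markers, Cxcl12 among them, was 10210 to 11430 CPM in the controls and 12220 to 15980 CPM in the CXCL12-deficient libraries. Cxcl12 alone of the 10 had a negative fold change, so the sum understates the rise of the other 9. RNA of blood cells was present as well: Ptprc, the pan-leukocyte surface phosphatase, had 59.8 to 107 CPM in the controls and 10.2 to 16.9 CPM in the CXCL12-deficient libraries. In bulk libraries such as these, fewer cells of a type and less RNA per cell cannot be told apart.

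Among the 39 genes, 2 rose in the CXCL12-deficient cells, Ifi44 (2.86-fold) and Ifit1 (2.32-fold), and none fell, by the quasi-likelihood test of edgeR at an adjusted p below 0.05. The share of all tested genes called higher was 0.639% and the share called lower was 3.94%. The sign of the fold change was positive for 35 of the 39 members and negative for Oas2, Oas3, Trim25 and Dtx3l. The median log2 fold change was 0.54 over the members and 0.03 over all tested genes, of which 7326 of 13926 were positive. Before adjustment for multiple tests, 19 members were higher and 1 was lower at p below 0.05, against 1057 and 1577 of all tested genes. DESeq2 called 12 members higher and none lower, where 1.94% of the genes it tested were called higher. Its 12 genes were Gbp2, Ifi35, Ifi44, Ifih1, Ifit1, Ifit3, Igtp, Irf7, Irgm1, Rtp4, Usp18 and Xaf1.

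**Figure D1:**
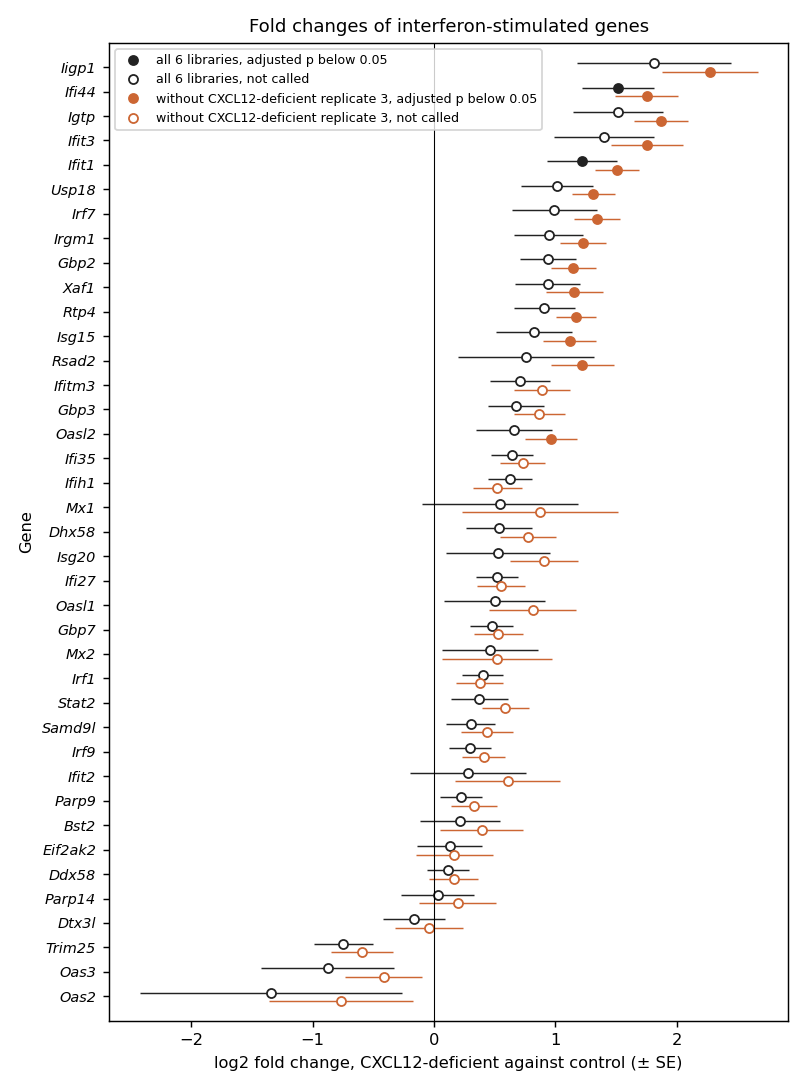
Log2 fold change of each of the 39 genes, CXCL12-deficient against control, with its SE as a horizontal bar, from all 6 libraries (black) and without CXCL12-deficient library 3 (orange). Filled points passed an adjusted p of 0.05 in edgeR: Ifi44 and Ifit1 with all libraries, and 14 genes when library 3 was left out.

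The CXCL12-deficient libraries differed among themselves. The summed level of the 39 genes was 3015, 2910 and 2524 CPM in the controls, and 6344, 5314 and 2985 CPM in CXCL12-deficient libraries 1, 2 and 3. Libraries 1 and 2 thus lay far above the controls and library 3 lay within their range. Against the mean of the controls, the median difference of the members in log2(CPM + 1) was 0.80, 0.58 and 0.02 in the 3 libraries, while the median of all tested genes was 0.00, 0.01 and 0.03. In library 1, 34 of the 39 genes lay above every control, where 31.9% of all tested genes did. Library 2 had 30 of 39 above every control (all tested genes 31.7%). Library 3 had 16 of 39 (all tested genes 33.8%), and 12 of its members lay below every control, which is 30.8% (all tested genes 31.1%). A level over 1.5 times the control mean was reached by 28, 18 and 2 members in libraries 1, 2 and 3, against 10.5%, 11.6% and 12.8% of all tested genes. Those 2 members in library 3 were Ifi44 and Ifih1. Library 3 gave the lowest of the 3 CXCL12-deficient values for 33 of the 39 genes, which is 84.6%, against 32.5% of all tested genes. The members were chosen with earlier results of these data known, so these contrasts between libraries are descriptive and no test.

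**Figure D2:**
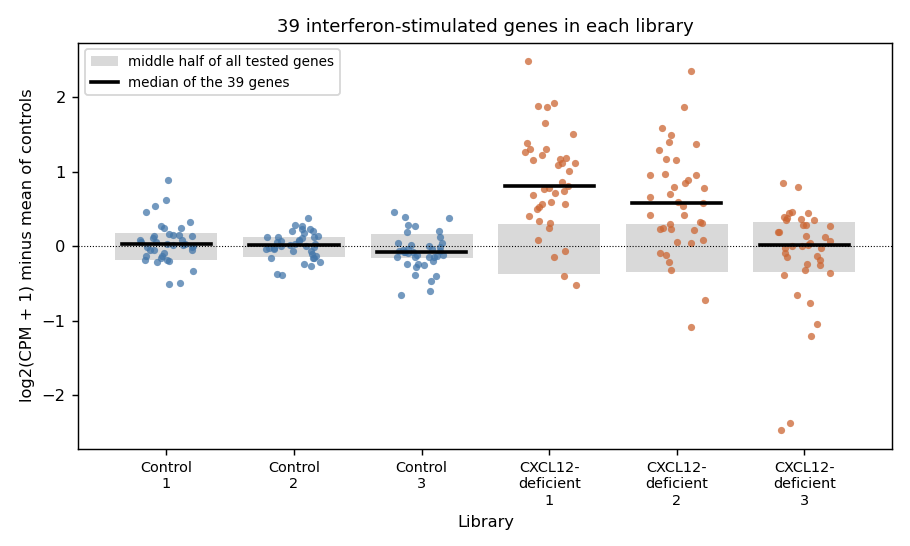
Each point is 1 of the 39 genes in 1 library, as log2(CPM + 1) minus the mean of the 3 controls; the line is their median and the grey box spans the middle 50% of all tested genes. The medians are 0.80 and 0.58 in CXCL12-deficient libraries 1 and 2 and 0.02 in library 3, where the points spread around 0.

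Fits without library 3 called 14 of the 39 genes higher, with adjusted p between 0.0076 and 0.0466 in edgeR, where 0.483% of all tested genes were called higher. The 14 were Gbp2, Ifi44, Ifit1, Ifit3, Igtp, Iigp1, Irf7, Irgm1, Isg15, Oasl2, Rsad2, Rtp4, Usp18 and Xaf1. The median log2 fold change of the 39 genes was then 0.77. Leaving out any other single library left none of the 39 genes called. Since library 3 was the lowest for most members, the calls without it show how far that library sets the result and are no separate support.

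By their pattern over libraries, the members fell into 3 kinds. In 14 genes all 3 CXCL12-deficient libraries lay above all 3 controls, where 11.7% of all tested genes did. These were Ifit1, Ifi44, Ifi27, Ifi35, Ifih1, Usp18, Rtp4, Xaf1, Gbp2, Gbp3, Gbp7, Igtp, Irgm1 and Ifitm3. Another 15 genes lay above all controls in libraries 1 and 2 but not in library 3, a pattern held by 5.16% of all tested genes. They were Ifit3, Isg15, Isg20, Irf7, Irf9, Stat2, Oasl1, Oasl2, Mx1, Rsad2, Ddx58, Dhx58, Parp9, Samd9l and Iigp1. Of the remaining 10 members, Trim25 lay below all controls in every CXCL12-deficient library (13.9% of all tested genes did so) and Irf1 and Mx2 exceeded the controls in libraries 1 and 3. The other 7 were Ifit2, Oas2, Oas3, Bst2, Parp14, Dtx3l and Eif2ak2.

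**Figure D3:**
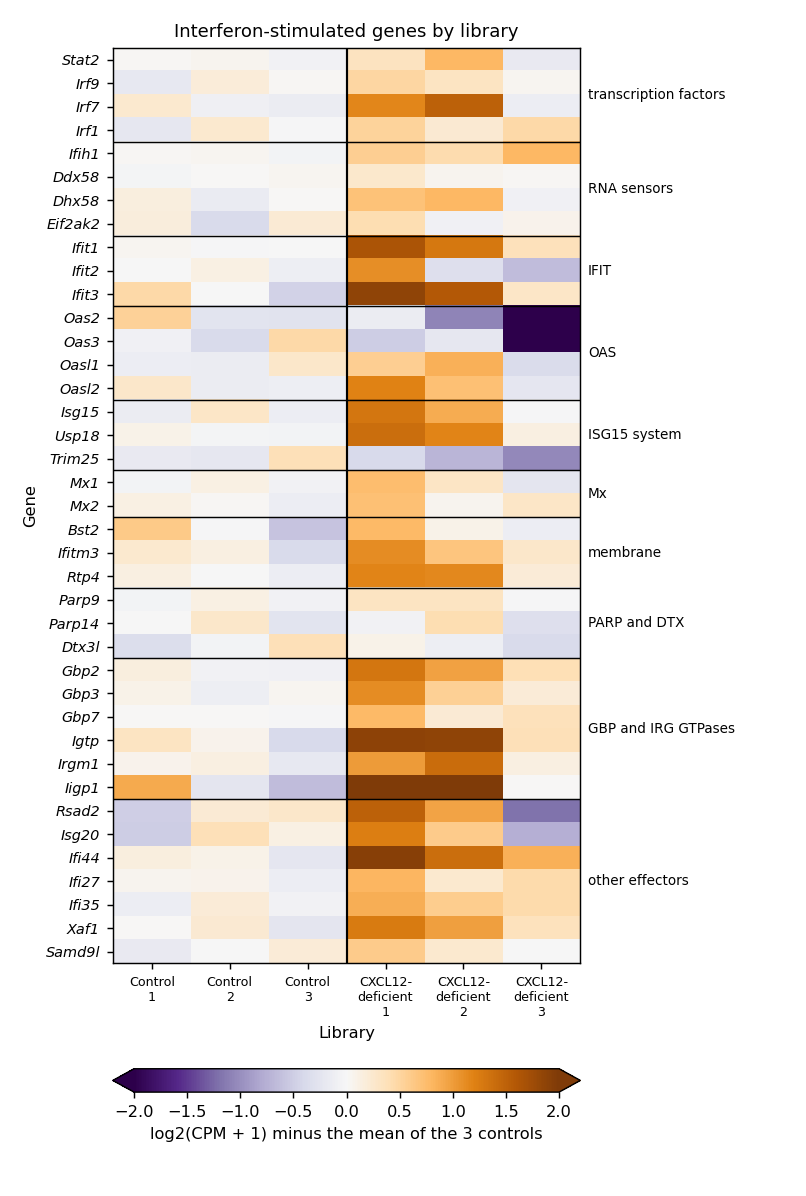
Level of each of the 39 genes in each library, as log2(CPM + 1) minus the mean of the controls (colour), ordered by role. Most cells are above 0 (orange) in CXCL12-deficient libraries 1 and 2 (35 and 33 of the 39 genes), though Oas2, Oas3 and Trim25 are below 0 in both. In library 3 most cells are pale and Oas2, Oas3, Rsad2 and Trim25 are purple.

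Transcription factors of the response came first. Irf7, which amplifies interferon production and the response to it, had 120, 94.4 and 91.2 CPM in the controls and 227, 288 and 92.5 CPM in the CXCL12-deficient libraries. Libraries 1 and 2 lay well above the controls, and library 3 lay among them. The log2 fold change was 0.99 ± 0.35 (SE), with an adjusted p of 0.162 in edgeR. It was 1.34 without library 3 and 0.65 without library 2. Irf1, a factor induced mainly by interferon gamma, was the most abundant of the 4 with 373, 508 and 422 CPM in the controls and 620, 507 and 594 CPM in the CXCL12-deficient cells. Its groups overlapped by library 2 only, and the log2 fold change was 0.40 ± 0.17 (adjusted p 0.243 in edgeR). Stat2 and Irf9, both parts of the ISRE-binding complex, had log2 fold changes of 0.37 ± 0.23 and 0.29 ± 0.17. None of the 4 was called, and their median was 0.39.

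Sensors of double-stranded RNA showed small differences. Ifih1, the MDA5 helicase that detects long viral RNA, had 23.7, 23.8 and 22.3 CPM in the controls and 35.2, 31.6 and 41.1 CPM in the CXCL12-deficient libraries. The groups did not overlap, and Ifih1 was among the 6 members whose lowest CXCL12-deficient value was in library 2. Its log2 fold change of 0.63 ± 0.18 had an adjusted p of 0.097 in edgeR. Ddx58, the RIG-I helicase, had 28.1, 29.1 and 29.9 CPM in the controls and 34.7, 30.1 and 29.3 CPM in the CXCL12-deficient cells, with a log2 fold change of 0.11 ± 0.17. Dhx58, the regulatory relative LGP2, had 0.54 ± 0.27, and Eif2ak2, the kinase PKR that halts translation, had 0.13 ± 0.27. No sensor was called.

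The IFIT proteins bind viral RNA that lacks the host's cap modifications. Ifit2, Ifit3 and Ifit1 lie in that order on the plus strand within chr19:34550694-34650009 (GRCm38), with Ifit1bl1, Ifit3b and Ifit1bl2 between Ifit3 and Ifit1. Ifit1, a gene of 2 exons, covers chr19:34640871-34650009. Its promoter is shown because Ifit1 was called and carries a pair of ISRE cores. The 150 bases before the RefSeq start, chr19:34640739-34640888 on the plus strand, are given 5′ to 3′ (GRCm38.p6), with both matches in capitals. RefSeq places that start downstream of the GENCODE start given above, so the last bases shown lie inside the GENCODE gene.
Ifit1 promoter: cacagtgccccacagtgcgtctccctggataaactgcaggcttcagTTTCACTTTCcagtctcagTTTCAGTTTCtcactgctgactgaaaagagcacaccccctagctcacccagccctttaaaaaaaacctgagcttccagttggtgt

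Ifit1 had 41.6, 39.8 and 40.3 CPM in the controls and 129, 101 and 52.5 CPM in the CXCL12-deficient libraries. The controls were almost equal (40.5 ± 0.932 CPM, SD, n = 3), and every CXCL12-deficient library lay above them, library 3 least. The log2 fold change was 1.22 ± 0.29 with an adjusted p of 0.0482 in edgeR. Over 15 alternatives the adjusted p ran from 0.00157 to 0.194, and 6 of the 15 called the gene; of the fits that left out 1 library, the fit without library 3 did so (log2 fold change 1.51). Ifit3 had 18.8, 13.4 and 9.45 CPM in the controls and 51.5, 42.2 and 16.5 CPM in the CXCL12-deficient libraries, and its log2 fold change was 1.40 ± 0.41 (adjusted p 0.103 in edgeR). Its reads are uncertain, since 97.4% of its transcript is near-identical to Ifit3b, which itself had a mean of 3.67 CPM in the controls and 6.14 CPM in the CXCL12-deficient cells. Ifit2 had 18.8 CPM in CXCL12-deficient library 1 and 6.45 and 4.93 CPM in the others, against 7.61 to 9.06 CPM in the controls.

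The oligoadenylate synthetase family was split in sign, and none of its 4 members was called. Oas2 and Oas3 make the messenger that activates RNase L, and both had negative fold changes. Oas3 had 18.7, 15.2 and 27.97 CPM in the controls and 13.7, 17.1 and 2.80 CPM in the CXCL12-deficient libraries. The log2 fold change of Oas3 was -0.88 ± 0.55 (adjusted p 0.444 in edgeR), and library 3 was far below the rest. Oas2 had 3.26 to 6.46 CPM in the controls and 3.67, 1.44 and 0 CPM in the CXCL12-deficient libraries. No read of Oas2 was counted in library 3, which allows a level of up to 0.133 CPM there (3 reads, counting error only). Oasl2, an enzymatically active member of the OAS-like genes in mice, was the most abundant of the family with 103, 76.3 and 78.5 CPM in the controls and 195, 139 and 72.1 CPM in the CXCL12-deficient libraries. Its log2 fold change was 0.66 ± 0.31 (adjusted p 0.298 in edgeR), 0.96 without library 3 and 0.30 without library 1. Oasl1, which limits Irf7 translation, had 0.50 ± 0.42. The median of the 4 was -0.19.

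Isg15 encodes a ubiquitin-like protein that is joined to other proteins during the response, and Usp18 removes it and blocks the receptor. The promoter of Isg15 is shown as the densest run of ISRE cores found here, 3 overlapping matches that together form the stretch in capitals. The 150 bases before the start lie at chr4:156200819-156200968 (GRCm38.p6, RefSeq) and are given on the minus strand, 5′ to 3′.
Isg15 promoter: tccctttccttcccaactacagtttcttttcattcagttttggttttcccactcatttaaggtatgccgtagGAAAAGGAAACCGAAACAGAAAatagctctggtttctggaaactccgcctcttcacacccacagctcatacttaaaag

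Isg15 had 32.0, 43.7 and 32.2 CPM in the controls and 89.1, 66.8 and 34.99 CPM in the CXCL12-deficient libraries. Library 3 lay among the controls, and the log2 fold change was 0.82 ± 0.31 (adjusted p 0.192 in edgeR), 1.12 without library 3 and 0.50 without library 1. A share of 63.8% of its transcript is near-identical to an unnamed copy, so its reads are uncertain too. Usp18 had 32.3, 29.7 and 29.3 CPM in the controls and 80.9, 70.1 and 33.3 CPM in the CXCL12-deficient libraries. For Usp18 the log2 fold change was 1.01 ± 0.29 (adjusted p 0.0985 in edgeR). All 3 of its CXCL12-deficient values lay above the controls, library 3 by little. Trim25, the ubiquitin ligase that activates RIG-I, was the reverse, with 33.9, 33.2 and 50.7 CPM in the controls and 28.9, 23.1 and 18.2 CPM in the CXCL12-deficient cells. Its log2 fold change was -0.75 ± 0.25 (adjusted p 0.141 in edgeR).

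The Mx GTPases, which trap viral ribonucleoproteins, were scarce. GENCODE types Mx2 as a polymorphic pseudogene, and whether these mice make a working protein from it is not known here. Mx2 had 3.68, 3.41 and 2.93 CPM in the controls and 6.08, 3.49 and 4.26 CPM in the CXCL12-deficient libraries, and Mx1 stayed between 0.844 and 2.67 CPM in all 6. Neither was called, with log2 fold changes of 0.46 ± 0.40 for Mx2 and 0.54 ± 0.64 for Mx1. Part of the Mx2 transcript (34.8%) is near-identical to Mx1.

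Membrane proteins included the member with the highest level per transcript length. Ifitm3, which blocks fusion of viruses with endosomes, had 478, 445 and 309 CPM in the controls and 879, 641 and 488 CPM in the CXCL12-deficient libraries. The groups did not overlap, but library 3 was close to the highest control, and the log2 fold change was 0.71 ± 0.25 (adjusted p 0.161 in edgeR). Rtp4, a receptor chaperone, had 85.2, 77.2 and 70.1 CPM in the controls and 176, 173 and 88.2 CPM in the CXCL12-deficient cells. Libraries 1 and 2 of Rtp4 were nearly equal, and its log2 fold change was 0.91 ± 0.25 (adjusted p 0.0846 in edgeR). Bst2, or tetherin, which holds virus particles at the cell surface, varied as much within the groups (66.6 to 156 and 91.6 to 174 CPM) as between them.

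Guanylate-binding proteins (Gbp2, Gbp3, Gbp7) and immunity-related GTPases (Igtp, Irgm1, Iigp1) coat the vacuoles of intracellular microbes and are strongly induced by interferon gamma. All 6 had positive fold changes with an unadjusted p below 0.05, none was called after adjustment, and the groups of 5 of them did not overlap. Over all tested genes 1057 of 13926 were higher at that p, and 11.7% lay higher without overlap. Their median log2 fold change was 0.94. Gbp7, Gbp3 and Gbp2 lie in that order on the plus strand within chr3:142530342-142638008. Igtp lies at chr11:58199556-58207591 on the plus strand and Irgm1 at chr11:48861968-48871683 on the minus strand. RefSeq places the starts of Gbp2 and Irgm1 downstream of their GENCODE starts, so the matches of these 2 lie inside the GENCODE genes. One 30-base ISRE site of each of 3 of these genes is shown, since these promoters carry the ISRE core close to the RefSeq start. The match is in capitals, 5′ to 3′ on the strand of the gene (RefSeq, GRCm38.p6).
Gbp2, chr3:142620594-142620623, plus strand: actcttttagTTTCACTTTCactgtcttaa
Igtp, chr11:58199512-58199541, plus strand: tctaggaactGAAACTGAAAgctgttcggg
Irgm1, chr11:48871425-48871454, minus strand: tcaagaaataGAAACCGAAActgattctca

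Iigp1 had the largest fold change of the 39 genes, and its level varied widely. Its level was 446, 202 and 152 CPM in the controls and 1344, 1225 and 240.3 CPM in the CXCL12-deficient libraries. Libraries 1 and 2 were 5.04 and 4.60 times the control mean, while library 3 was 0.902 times it. The log2 fold change was 1.81 ± 0.63 (adjusted p 0.167 in edgeR), 2.27 ± 0.39 without library 3 and 1.46 without library 1. Igtp had 69.1, 58.1 and 41.4 CPM in the controls and 207, 204 and 71.7 CPM in the CXCL12-deficient libraries, with an adjusted p of 0.0556 in edgeR. Library 3 of Igtp exceeded the highest control by a small margin only, and 8.0% of its exonic bases are shared with Irgm2 on the same strand. Gbp2 had 65.6, 56.3 and 55.1 CPM in the controls and 147, 115 and 77.7 CPM in the CXCL12-deficient cells. Its log2 fold change was 0.94 ± 0.23 and its adjusted p in edgeR was 0.0524, just short of the threshold. Irgm1 had 82.7, 86.4 and 69.3 CPM in the controls and 161, 211 and 87.2 CPM in the CXCL12-deficient libraries. In this gene library 3 lay next to the highest control, and the log2 fold change was 0.94 ± 0.28 (adjusted p 0.11 in edgeR). Gbp3 had 57.1, 49.4 and 55.6 CPM in the controls and 118, 79.2 and 61.7 CPM in the CXCL12-deficient cells, a log2 fold change of 0.68 ± 0.23. Gbp7 had 65.4, 65.4 and 63.4 CPM in the controls and 112, 75.4 and 83.3 CPM in the CXCL12-deficient cells, a log2 fold change of 0.48 ± 0.18.

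**Figure D4:**
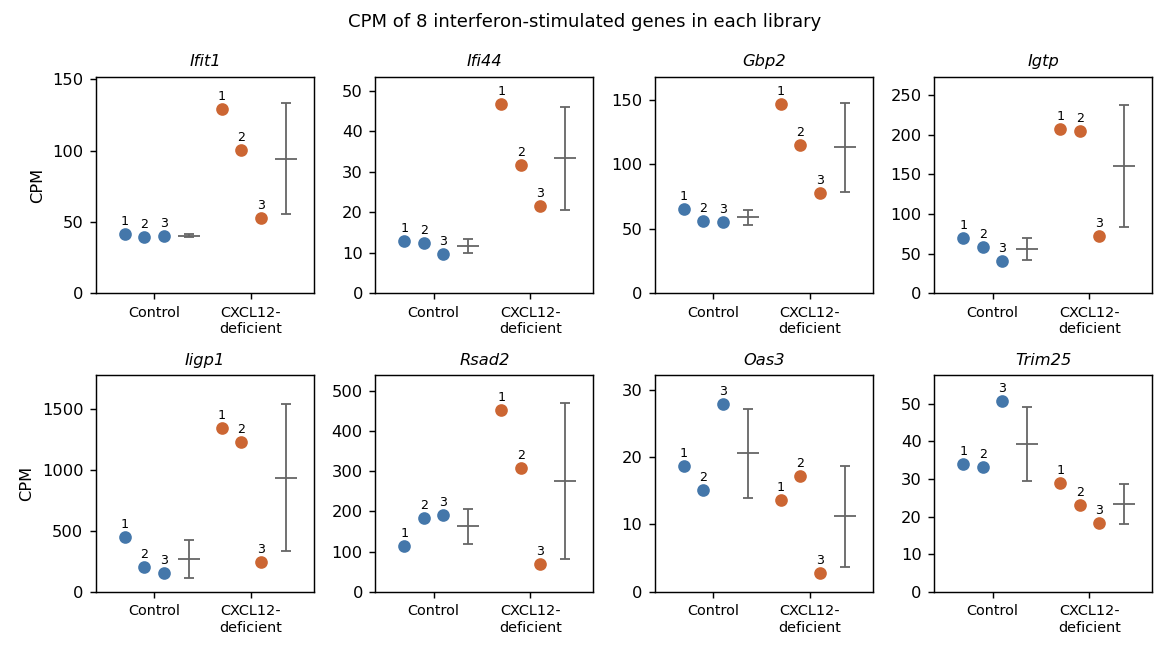
CPM of 8 of the genes in each library (points, numbered by library) with the mean and SD of each group (grey). Ifit1, Ifi44, Gbp2 and Igtp have 3 CXCL12-deficient points above the controls; in Iigp1 and Rsad2 library 3 falls back to the controls or below, and Oas3 and Trim25 run the other way.

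Among the other effectors Ifi44 was called. It encodes a cytoplasmic protein that restrains virus replication and lies at chr3:151730922-151749960 on the minus strand. Its level was 12.9, 12.3 and 9.68 CPM in the controls and 46.6, 31.6 and 21.5 CPM in the CXCL12-deficient libraries. Even library 3 was 1.85 times the control mean, and no other member reached that ratio there. The log2 fold change was 1.52 ± 0.30 with an adjusted p of 0.024 in edgeR. Over 15 alternatives its adjusted p ran from 8.72e-05 to 0.126, and 9 of the 15 called the gene. It kept its call with every other normalization, filter and tool at the threshold of 0.05, and of the fits that left out 1 library it kept it in the fit without library 3.

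Rsad2, or viperin, makes a nucleotide that stops viral polymerases, and it had 113, 184 and 192 CPM in the controls and 451, 308 and 68.6 CPM in the CXCL12-deficient libraries. Library 3 was below every control, and the log2 fold change was 0.76 ± 0.56 (adjusted p 0.529 in edgeR) with all libraries, 1.22 without library 3 and 0.21 without library 1. The exonuclease Isg20 had the same order, with 232, 150 and 58.0 CPM in the CXCL12-deficient libraries against 69.4 to 129 CPM in the controls. Xaf1, which promotes apoptosis, had 17.4, 20.5 and 14.5 CPM in the controls and 42.9, 35.02 and 22.4 CPM in the CXCL12-deficient cells. Its groups did not overlap, and its log2 fold change was 0.94 ± 0.27 (adjusted p 0.0947 in edgeR). Ifi35, a partner of Nmi, had 63.7, 80.4 and 66.2 CPM in the controls and 127, 105 and 95.7 CPM in the CXCL12-deficient libraries, all of them above the controls. The log2 fold change of Ifi35 was 0.64 ± 0.17 (adjusted p 0.0726 in edgeR), and 16.8% of its exonic bases overlap another gene. Ifi27, a small mitochondrial protein, had 119, 121 and 105 CPM in the controls and 201, 135 and 156 CPM in the CXCL12-deficient cells, a log2 fold change of 0.52 ± 0.18. Samd9l, a translation inhibitor, had a log2 fold change of 0.30 ± 0.20.

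The ADP-ribosyltransferases Parp9 and Parp14 and the ubiquitin ligase Dtx3l, the partner of Parp9, were not called, and the median of their log2 fold changes was 0.03. Parp9 had 34.8, 39.3 and 34.2 CPM in the controls and 45.2, 45.4 and 35.5 CPM in the CXCL12-deficient libraries, and its log2 fold change was 0.22 ± 0.17 (adjusted p 0.564 in edgeR). Parp14 had a log2 fold change of 0.03 ± 0.30 and Dtx3l one of -0.16 ± 0.26. Parp9 and Dtx3l lie on opposite strands and share exonic bases, and the strand setting of the counting is not given in the sources used here.

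Levels can be compared between members as control mean CPM per kilobase of exon. On that scale Ifitm3 had 605, Bst2 119, Irf1 109 and Ifi27 78.3, while Mx1 had 0.315, Mx2 0.924 and Oas2 0.975. The 2 called genes were not among the most abundant, with 15.3 for Ifit1 and 1.90 for Ifi44.

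A promoter of RefSeq (GRCm38.p6, 250 bases before to 50 after the start) was found for 29 of the 39 genes. The ISRE core was searched as GAAANNGAAA and the GAS as TTCNNNGAA, on both strands, and where a match lies on the opposite strand the printed letters are its complement. An ISRE core was present in 16 of the 29 promoters (55.2%) and in 3.99% of all 27025 genes with a promoter. A GAS was present in 9 of the 29 (31.0%) and in 9.55% of all. Both were present in 5 promoters, and 9 held neither, Ifi44 among them. Among the members with all 3 CXCL12-deficient libraries above the controls, 8 of 11 promoters held an ISRE core. The share was 5 of 11 among those above the controls in libraries 1 and 2 but not in library 3, and 3 of 7 among the remaining members. A GAS was held by 4 of 11, 1 of 11 and 4 of 7 promoters in the same order. The patterns were drawn from these same data, and a link between motif and pattern was not tested. The sites of Ddx58 and Oas3 are given since these genes carry the same core, while the mean of Oas3 was not higher in the CXCL12-deficient cells and that of Ddx58 differed little.
Ddx58, chr4:40239804-40239833, minus strand: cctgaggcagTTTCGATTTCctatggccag
Oas3, chr5:120777715-120777744, minus strand: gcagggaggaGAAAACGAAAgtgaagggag

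Genes of the pathway upstream of the members were examined in the same edgeR fit. There 0.639% of all tested genes were called higher and 3.94% lower. Of 14 interferon genes listed, 2 were matched and neither passed the filter. Ifng had 7 reads in control library 3 and 0 in the other 5, which allows up to 0.125 to 0.133 CPM in the CXCL12-deficient libraries (3 reads). Ifnz had between 1 and 9 reads per library. The other 12 ligands were not analysed here.

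Of 11 receptor, kinase and STAT genes none was called, and their median log2 fold change was 0.13. Ifngr1, the ligand-binding chain of the gamma receptor, had 546, 494 and 463 CPM in the controls and 506, 734 and 612 CPM in the CXCL12-deficient libraries, with overlapping groups. Stat3, the factor shared with many cytokines, had 403, 351 and 396 CPM and 391, 456 and 385 CPM.

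Genes that promote or limit interferon production, Samhd1 among the latter, gave 1 call among 16 tested. Irf5, a factor used mainly by myeloid and B cells downstream of Toll-like receptors, fell from 50.6, 53.4 and 73.8 CPM to 21.1, 18.3 and 19.3 CPM. Irf5 had a log2 fold change of -1.60 ± 0.20 (adjusted p 0.00562 in edgeR), and leaving out any 1 library kept the call. Samhd1, which depletes nucleotides, had 407, 416 and 389 CPM in the controls and 642, 578 and 595 CPM in the CXCL12-deficient cells, with an adjusted p of 0.0508 in edgeR. Unc93b1, the chaperone of endosomal Toll-like receptors, had 230, 257 and 322 CPM and 161, 212 and 185 CPM.

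Negative regulators gave 1 call among 11 tested, one of which, Usp18, is also a member. Ptpn6, the phosphatase SHP-1 of blood cells, fell from 188, 253 and 282 CPM to 61.7, 52.7 and 45.1 CPM. Ptpn6 had a log2 fold change of -2.18 ± 0.20 (adjusted p 0.00319 in edgeR). Socs3, the feedback inhibitor of STAT signalling, had 1228, 621 and 826 CPM in the controls and 1358, 1392 and 959.5 CPM in the CXCL12-deficient libraries, and its groups overlapped. Pias1, an inhibitor of STAT signalling, had 141, 130 and 157 CPM and 140, 176 and 174 CPM.

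Further interferon-stimulated genes outside the 39 were examined in the same fit. Of 63 listed, 59 were tested, 38 had a positive and 21 a negative fold change, and their median was 0.28. None was called higher. At an unadjusted p below 0.05 in edgeR, 10 were higher and 8 lower, against 1057 and 1577 of 13926 tested genes. DESeq2 called 5 higher (Ifi47, Gbp5, Irgm2, Lgals3bp and Nmi) and 6 lower. Of the 13926 genes tested in edgeR, DESeq2 called 295 higher and 997 lower. Among the 62 matched genes, 6 lay above all controls in every CXCL12-deficient library and 11 lay below them. The shares of all tested genes were 11.7% and 13.9%. Slfn1, Slfn2 and Gbp9 were called lower, 3 of 59, where 3.94% of all tested genes were called lower. Slfn2, which keeps T cells and monocytes quiescent, fell from 127, 137 and 162 CPM to 51.4, 36.1 and 16.4 CPM, and Slfn1, its relative, from 24.2, 22.5 and 25.9 CPM to 7.83, 2.62 and 2.53 CPM. Gbp9 fell from 5.18, 5.81 and 6.99 CPM to 1.87, 1.92 and 1.02 CPM, and its call (adjusted p 0.0426 in edgeR) was lost whichever library was left out. Slfn1 kept its call in 4 of those 6 fits and Slfn2 in 3.

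Ube2l6, the conjugating enzyme of Isg15, followed the members, with 434, 458 and 502 CPM in the controls and 1387, 873 and 259.9 CPM in the CXCL12-deficient libraries. Lgals3bp, a secreted glycoprotein, had 636, 476 and 444 CPM in the controls and 929, 1169 and 654 CPM in the CXCL12-deficient libraries. Without library 3, edgeR called 8 of these genes higher and 2 lower, where 0.483% of all tested genes were called higher. Of the 13926 genes of the main fit, 410 were called lower without library 3. Among the 8 were Ifi47, Irgm2, Tgtp2, Lgals3bp, Ube2l6, Cxcl9 and Psmb9.

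Markers of other cells differed between the libraries too. The sum of 6 erythroid markers was 2482, 3350 and 3158 CPM in the controls and 6814, 4872 and 1471 CPM in CXCL12-deficient libraries 1, 2 and 3, which is the order of the members' sums among those 3 libraries. None of the 6 was called, and all had reads in the CXCL12-deficient libraries. Alas2, the first enzyme of haem synthesis in red cells, had 985, 1088 and 1233 CPM in the controls and 3154, 2169 and 571 CPM in the CXCL12-deficient libraries. The sum of 8 leukocyte markers, all of which fell, was 2403 to 3819 CPM in the controls and 1131, 875.7 and 543.9 CPM in the CXCL12-deficient libraries.

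Each of the remaining lists of blood and vessel cells had a lower sum in every CXCL12-deficient library than in every control. A marker is said to fall if edgeR called it lower, as it did 3.94% of all tested genes. Of 12 macrophage markers, 4 fell, while 6 had a positive fold change. Their sum was 3687 to 5481 CPM in the controls and 2146 to 3667 CPM in the CXCL12-deficient libraries. For 11 neutrophil markers, of which 10 fell, it was 15110 to 20570 CPM and 2827 to 7032 CPM. For 11 endothelial markers, of which 7 fell, it was 116.9 to 165.6 CPM and 26.04 to 41.9 CPM. B cell markers, of which 3 of 10 fell, had 363.0 to 1005 CPM and 89.69 to 267.8 CPM. T and natural killer cell markers, of which 2 of 8 fell, had 51.66 to 89.59 CPM and 7.37 to 25.51 CPM. Every neutrophil, endothelial, B cell and T and natural killer cell marker had a negative fold change, called or not. The 10 markers of plasmacytoid dendritic cells, the main producers of type I interferon in blood, had 576.1 to 716.3 CPM and 413.3 to 502.9 CPM. Of the 9 tested, 2 fell and 3 had a positive fold change. Among the 10 markers, 5 lay below all controls in every CXCL12-deficient library and 0 lay above them. The shares of all tested genes were 13.9% and 11.7%. Of these markers, Bst2 is also a member of the 39 genes. The part of these cells in the levels of the interferon-stimulated genes was not tested.

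**Figure D5:**
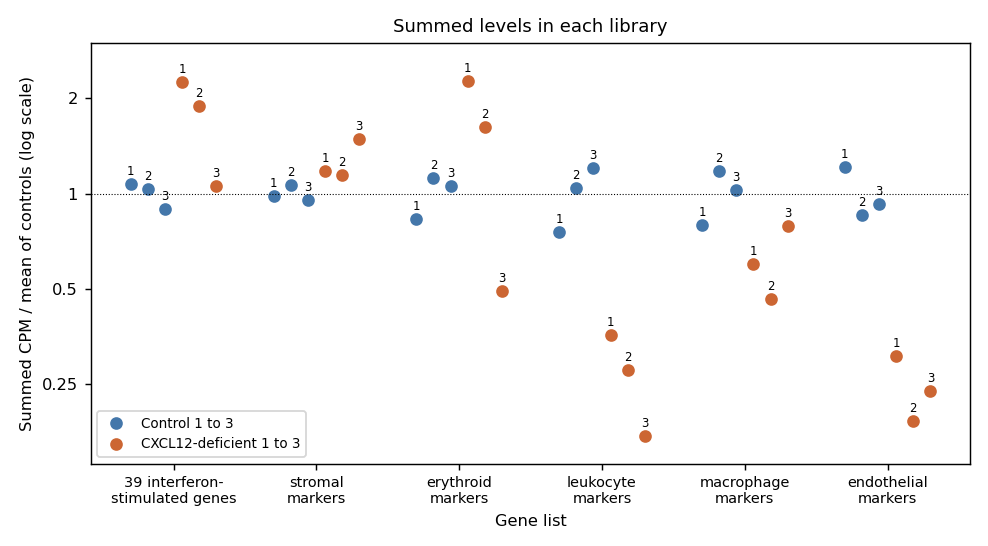
Summed CPM of the 39 genes and of 5 marker lists in each library, divided by the mean of the controls, on a log scale. The members and the erythroid markers are both highest in CXCL12-deficient library 1 and lowest in library 3, while the leukocyte and endothelial markers are below the controls in all 3.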

How the data were processed

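Per gene and library, the authors deposited unnormalized read counts, and also regularized log2 values that served in an alternative. A depth-normalized table was not used. Per the submitters' processing notes, the build was mm10 and the tools were TopHat2 2.0.13, HTSeq, Bowtie2 2.2.1, DESeq2, Cufflinks, Cuffdiff and FastQC, with no role for each. Annotation and strand setting: not given in the sources used here. The library kit is Nextera XT, per the labels' protocols. No entry used here carries an Rpl, Rps or mt- symbol, so CPM are relative to totals without such genes.

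The 4 exon entries of Cxcl12 were summed. Counts were filtered (filterByExpr, minimum count 10, minimum total 15), scaled by TMM factors (0.955 to 1.05) and compared in edgeR 4.0.16 (R 4.3.3) by its quasi-likelihood F-test with robust shrinkage. P-values were adjusted by Benjamini-Hochberg over every gene tested, with calls made below 0.05. The SE of a log2 fold change came from the F statistic. CPM are TMM-scaled, and differences by library used log2(CPM + 1). The fit was tested on simulated data. Totals of 20133299 to 28009257 counts set the precision, and limits for 0 counts cover counting error only. Alternatives were DESeq2 1.42.0, limma 3.58.1 (voom and the deposited log2 values, of which 23 entries matched no count entry), other scaling factors and filters, a stricter threshold and each library left out.

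Gene positions and exon lengths came from GENCODE M21 (GRCm38), which may differ from the authors' annotation. Near-identical transcripts (at least 95% over 100 bases) came from BLAST 2.17.0 and promoters from RefSeq. Values in every library are given for members that were called, that did not overlap between groups with a mean of at least 1 CPM, or that had the highest level or lowest p of their role. From each further list up to 4 called genes and the 2 most abundant are named; other genes were named after their values were seen. The members and all lists were chosen with earlier results of these data known.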

Additional observations from a re-analysis of the deposited data

How the results depend on the processing

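No paired analysis was possible because the labels give no replicate number or pairing, and the numbers used here only name the libraries. No named gene tested under the alternatives changed direction. Of the other members, all uncalled, 5 changed sign when 1 library was left out, with log2 fold changes down to -0.54 for Ifit2, -0.11 for Bst2, -0.05 for Eif2ak2 and -0.22 for Parp14 and up to 0.05 for Dtx3l. The median log2 fold change of the 39 genes lay between 0.31 (limma on the deposited log2 values) and 0.77 (without CXCL12-deficient library 3). The number of members called higher, 2 in the main test, was 12 with DESeq2, 1 with DESeq2 size factors, with limma-voom and with limma on the deposited log2 values, 0 at an adjusted p below 0.01, and 0 to 14 when 1 library was left out. No member was called lower in any fit. Among the other interferon-stimulated genes, the 0 called higher became 5 with DESeq2 and 0 to 8 when 1 library was left out. The 3 called lower became 6 with DESeq2, 0 at an adjusted p below 0.01, and between 0 and 4 when 1 library was left out. In the whole table the 637 called genes became 1328 with DESeq2, 80 at an adjusted p below 0.01, and 74 to 577 when 1 library was left out, with 160 without control library 2 and 74 without control library 3. The cause of these shifts was not tested. Of 554 values of 37 named genes, 494 kept their side of the threshold, 30 gained a call and 30 lost one. With 3 libraries a group and SDs of up to 606 CPM (Iigp1), the precision is limited for the members that library 3 sets apart, and genes near 1 CPM such as Mx1 rest on few reads.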
